A study of Mus musculus with 15 samples.

Results

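The change in hypothalamic microRNAs (miRNAs) between puberty and young adulthood was described from 10 of the 15 small RNA libraries of a study of female mice. These were the 5 libraries taken at postnatal day 35 (PND35, week 5, which the series places during puberty) and the 5 taken at PND56 (week 8, after puberty), chosen by the age in their labels. All were made from the hypothalamus of female C57BL/6JOlaHsd mice, an inbred substrain, with no treatment named in the labels at either age. The 5 libraries at PND14 (week 2, before puberty) took part in the estimate of spread and are otherwise given only beside the results. The labels name neither the stage of the estrous cycle at PND56 nor whether an RNA sample came from 1 animal or from several, and the p-values therefore rest on a spread between samples that may be technical.

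MiRNAs are RNAs of about the length shown in the sequences given next. Each is cut from 1 arm of a folded hairpin, named 5p or 3p, and pairs with messenger RNAs mainly through bases 2 to 8 from its 5′ end, the seed, so miRNAs that share a seed share most of their target sites. Pairing lowers the stability and the translation of the messenger RNA. The hypothalamus holds the neurons that make gonadotropin-releasing hormone (GnRH), whose pulses start puberty and later drive the ovarian cycle, and it also holds glia, vessels and the ciliated ependymal lining of the third ventricle. In whole tissue, fewer cells of a type and less RNA per cell cannot be told apart.

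The mature sequences of the miRNAs on which the results turn are shown with the seed in capitals, from RefSeq on the assembly GRCm38.p6. RefSeq gave a sequence for 26 of the 31 miRNAs called between the ages and for 557 of the 704 tested. The first 4 rose from PND35 to PND56 and fall into 2 seed groups, and within each group the mature RNAs differ by 1 base. The other 6 fell, and no seed is shared among them.
miR-30a-5p: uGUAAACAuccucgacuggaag
miR-30e-5p: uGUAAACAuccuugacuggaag
miR-29a-3p: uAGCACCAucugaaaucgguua
miR-29c-3p: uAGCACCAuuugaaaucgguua
miR-323-3p: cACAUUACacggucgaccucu
miR-1197-3p: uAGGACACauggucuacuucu
miR-412-5p: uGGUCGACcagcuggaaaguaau
miR-409-5p: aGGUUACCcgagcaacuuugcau
miR-449a-5p: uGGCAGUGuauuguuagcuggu
miR-1983: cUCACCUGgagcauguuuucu

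Total counts of the 10 libraries ran from 6964432 to 11623958, with a mean of 8553460 at PND35 and 8866890 at PND56, and 1088 to 1172 miRNAs had at least 1 count. None of 4 measures of library composition passed a test between the ages (exact two-sided permutation tests, adjusted p = 0.762 to 0.833, where the smallest p that 5 against 5 allows is 0.00794). Replicates 1 to 3 of each age carry week names in the labels and replicates 4 and 5 plain numbers, and the first principal component of the 10 libraries, with 42.1% of the variance, separated these 2 name series and not the ages. Name series was therefore a term in the model. On the second component (17.7%), PND56 replicate 1 stood at 6.19, beside PND35 replicates 1 to 3 (4.62 to 5.38) and apart from PND56 replicates 2 and 3 (−9.71 and −6.61). Results are given with that library and, where it matters, without it. Neuronal markers were present at high levels, with miR-124-3p at 12221 ± 2978 CPM (read counts scaled for library size with edgeR's TMM factors, mean ± SD, n = 5) at PND35 and 12709 ± 7571 at PND56. miR-7b-5p, known to be rich in the hypothalamus, stood at 38911 ± 5003 and 43218 ± 7918 CPM. miR-375-3p, a marker of pituitary endocrine cells, stood at 81.5 ± 12.1 and 70.0 ± 34.6 CPM.

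Between PND35 and PND56 the clearest changes were falls. miR-323-3p and miR-412-5p of the imprinted Dlk1-Dio3 region, miR-449a-5p of ciliated cells and miR-1983 each dropped to around or below a log2 fold change of −1, while miR-30a-5p, miR-30d-5p, miR-30e-5p and miR-29a-3p, all abundant, rose by 0.67 to 0.88. In all, 31 of 704 tested miRNAs (4.4%) had an adjusted p below 0.05 in edgeR's quasi-likelihood F test, which is what "called", "rose" and "fell" refer to here. The unadjusted p was below 0.05 in 119. Of the 31, 12 rose (1.7% of those tested) and 19 fell (2.7%). A change of at least 2-fold was seen in 9 of them, 1 upward and 8 downward. In 32 of the 704 (4.55%) the 5 PND56 libraries lay wholly above (13, 1.85%) or wholly below (19, 2.7%) the 5 PND35 libraries, and 20 of the 31 calls were among these. The median log2 fold change of all tested miRNAs was 0.04. Scaling to total counts in place of TMM moved that median to −0.12 and gave 6 higher and 38 lower calls, so that 13.6% of the calls were upward against 38.7%. Each change given here is on the TMM scale.

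**Figure D1:**
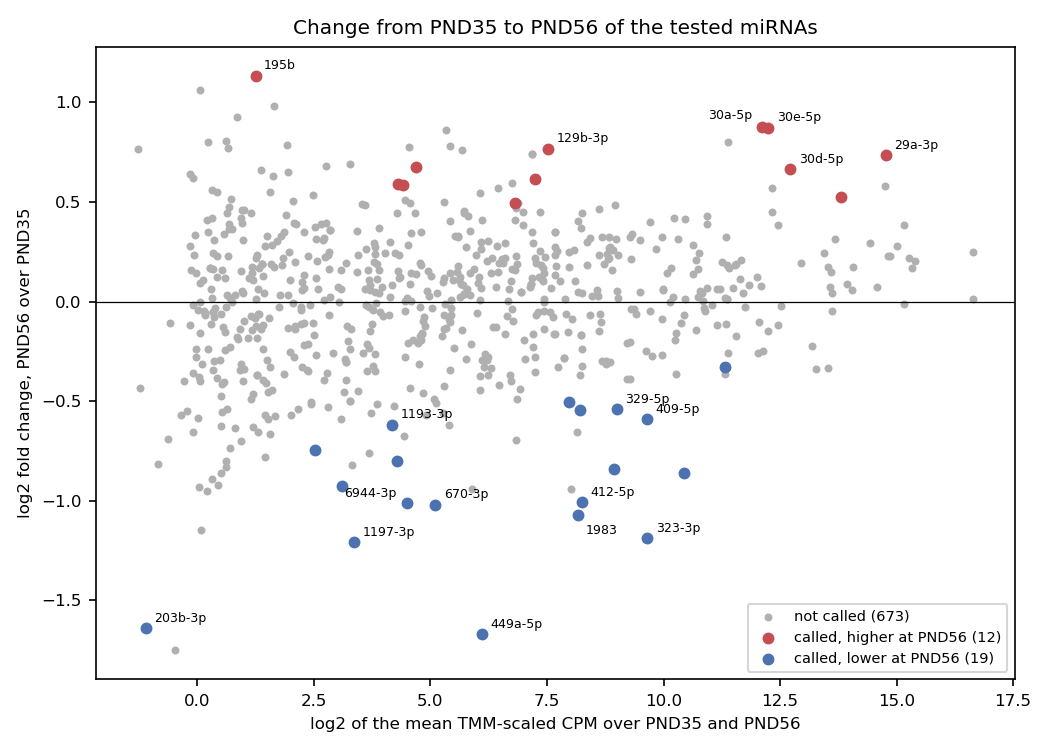
Log2 fold change from PND35 to PND56 of each of the 704 tested miRNAs (vertical axis) against the log2 of its mean level in TMM-scaled CPM (horizontal axis), with the 12 called higher in red and the 19 called lower in blue; names are printed for those with an adjusted p below 0.03 or a change of more than 2-fold. The called miRNAs of the miR-30 and miR-29 families lie at the right, at high levels, and miR-449a-5p lies lowest among the calls.

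The Dlk1-Dio3 region on chromosome 12 is an imprinted locus whose miRNAs are made from the maternal chromosome, are rich in brain and are known from neuronal development. Of its 93 tested members 12 fell (12.9%, against 2.7% of all tested) and 0 rose. The 5 PND56 libraries lay wholly below those of PND35 in 7, where they did so in 19 of all 704 tested (2.7%). One of the 7, miR-496a-3p, was not called. The fold changes of the list had a median of −0.16, with 29 above and 64 below 0 (14 and 79 with total-count scaling). miR-323-3p showed the smallest p of the comparison. Its levels at PND35 were 1038, 930.2, 1099.7, 1222 and 1308 CPM in replicates 1 to 5, and at PND56 550.3, 473, 434, 477 and 512 CPM. Every PND56 library thus lay far below every PND35 library, with means of 1119 ± 149 and 489 ± 43.9 CPM and a fall of 1.19 ± 0.11 on the log2 scale (± SE; adjusted p = 1.15e-05). miR-412-5p was at 334, 333, 390.4, 535 and 437 CPM at PND35 and 188, 167, 187, 213 and 250.0 CPM at PND56, again without overlap, and fell by 1.01 ± 0.12 (adjusted p = 7.89e-05). miR-409-5p went from 983, 1080.2, 1032, 864 and 882 CPM to 711, 619.5, 669.7, 585 and 625 CPM and fell by 0.59 ± 0.10 (adjusted p = 0.00249). Here the change was smaller, but the spread within each age was narrow. miR-1197-3p, at low levels, was at 13.6, 19.0, 19.9, 7.96 and 9.57 CPM at PND35 and 5.94, 9.68, 10.7, 2.50 and 3.77 CPM at PND56. Its ages overlapped, with replicates 4 and 5 lower than replicates 1 to 3 at both, and within each name series every PND56 library was below every PND35 library (fall of 1.21 ± 0.26, adjusted p = 0.0164). These 4 were called whichever of the 10 libraries was left out.

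**Figure D2:**
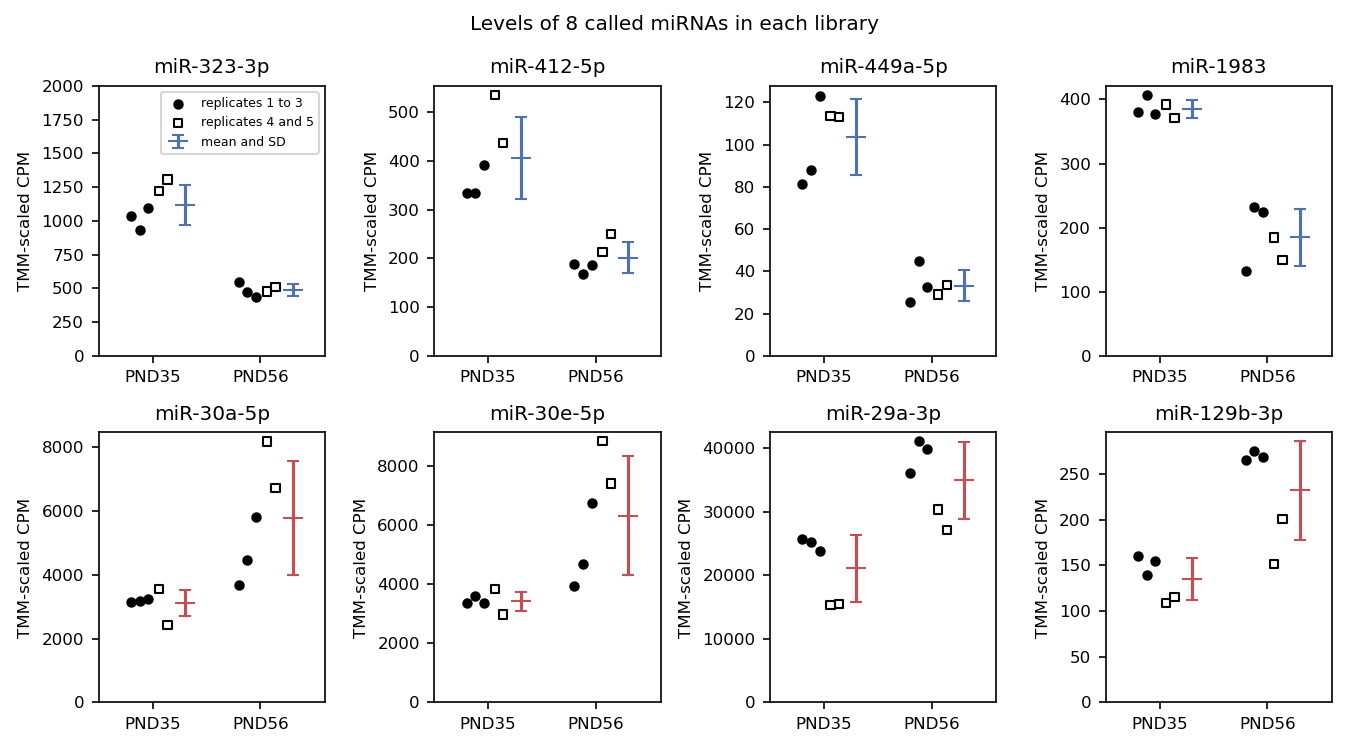
TMM-scaled CPM of 8 called miRNAs in each PND35 and PND56 library (filled circles, replicates 1 to 3; open squares, replicates 4 and 5), with the mean and SD of each age beside the points and each vertical axis starting at 0. The ages do not overlap for any of these miRNAs except miR-129b-3p, where replicates 4 and 5 lie lower than replicates 1 to 3 at both ages.

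The other 8 called members of the region were called in fewer of the fits. miR-487b-3p was at 1909.7, 2314, 1774, 1483 and 1476 CPM at PND35 and 1177, 572, 809.6, 1141 and 1169 CPM at PND56, a fall of 0.86 ± 0.22 (adjusted p = 0.0425) that measured 1.27 over replicates 1 to 3 and 0.38 over replicates 4 and 5. The other arm miR-487b-5p fell by 0.74 ± 0.20, at 7.21 ± 0.821 and 4.27 ± 0.650 CPM (adjusted p = 0.0494). miR-380-3p fell by 0.84 ± 0.22 (adjusted p = 0.0448), from 630.0 ± 250.1 to 353 ± 149.7 CPM, with its PND35 replicates 4 and 5, at 897 and 902 CPM, far above the other 3. Over the 10 fits that each left out 1 library, the call of miR-487b-3p was kept only in those without PND56 replicate 1, 2, 4 or 5 (adjusted p up to 0.110), and that of miR-380-3p only without PND35 replicate 1 or 3 or PND56 replicate 4 or 5 (up to 0.118). Smaller falls were those of miR-1193-3p (0.62 ± 0.14, adjusted p = 0.0231), miR-329-5p (0.54 ± 0.12, adjusted p = 0.0252), miR-666-3p (0.54 ± 0.13, adjusted p = 0.0349), miR-433-3p (0.50 ± 0.12, adjusted p = 0.0349) and miR-369-5p (0.33 ± 0.09, adjusted p = 0.0498). In the same 10 fits, miR-329-5p was kept only without PND35 replicate 4 or PND56 replicate 1, 2 or 5, miR-433-3p only without PND56 replicate 1, 2 or 5, miR-369-5p only without PND56 replicate 2 or 5, and miR-666-3p only without PND35 replicate 1 or PND56 replicate 1, 2, 3 or 4. The most abundant member, miR-127-3p, was at 19768 ± 1495 CPM at PND35 and 24223 ± 2277 CPM at PND56, a difference of 0.29 ± 0.14 (adjusted p = 0.278). The summed level of all 112 listed members, tested or not, was 92917 to 97796 CPM in the PND35 libraries and 86437 to 95928 CPM in the PND56 libraries. The means were 95455 ± 1779 and 91477 ± 3402 CPM. The count of 12 was 14 without PND56 replicate 1, 10 without PND56 replicate 2 or 5, 8 without PND56 replicate 4, 7 without PND35 replicate 1, 6 without PND35 replicate 3 or PND56 replicate 3, 5 without PND35 replicate 4 and 4 without PND35 replicate 2 or 5. It was 3 without the name series term and 3 in replicates 1 to 3 alone, in both cases miR-323-3p, miR-409-5p and miR-412-5p. With total-count scaling or in replicates 4 and 5 alone it was 19, and the latter also gave 2 rises. DESeq2 gave 14 falls and 1 rise in the region. With no filter on low counts 9 fell, 6 of the 12 among them, and 1 rose, miR-376b-3p, which by the main test was at 0.80 ± 0.36 (adjusted p = 0.275).

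By position, most of the called members lay toward the far end of the region, in a split chosen after its values were seen. RefSeq placed 85 of the 93 on 49 hairpins between 109563692 and 109747960 on chromosome 12 (GRCm38, mm10, as for all positions given), with a stretch of 90.8 kb holding none of them. Before that stretch 1 of 31 fell (median −0.12), a share near the 2.7% of all tested miRNAs, and after it 9 of 54 fell (median −0.19). The hairpin of miR-323 (109712508 to 109712593) lies between annotated genes, with that of miR-1197 (109712317 to 109712436) just upstream and that of miR-380 (109711803 to 109711863) before it. All 3 hairpins, with starts within 705 bases, gave a called 3p arm. miR-409 (109743158 to 109743236, in an intron of the long noncoding RNA Mirg), miR-412 (109743289 to 109743368, in a Mirg exon) and miR-369 (109743418 to 109743496, likewise) start within 260 bases, and the 5p arm of each fell. miR-433 (109591715 to 109591838), the call before the stretch, lies opposite an exon of Rtl1, a gene expressed from the paternal chromosome. The opposite arms of these hairpins that were tested were not called, and miR-412-3p and miR-1197-5p were not tested. miR-433-5p was at −0.52 ± 0.27 (adjusted p = 0.347), a change near that of its called 3p arm (−0.50 ± 0.12). miR-323-5p was at 51.0 ± 9.17 CPM at PND35 and 33.6 ± 14.9 at PND56, a difference of −0.62 ± 0.27 (adjusted p = 0.243). miR-409-3p was at −0.21 ± 0.12 (adjusted p = 0.399) and miR-369-3p at −0.37 ± 0.25 (adjusted p = 0.486). The next hairpin after miR-369 gave miR-410-3p, where PND56 replicates 2 and 3 had 26.1 and 38.0 CPM and PND56 replicates 4 and 5 had 104 and 172 CPM, and the difference between ages was −0.42 ± 0.39.

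**Figure D3:**
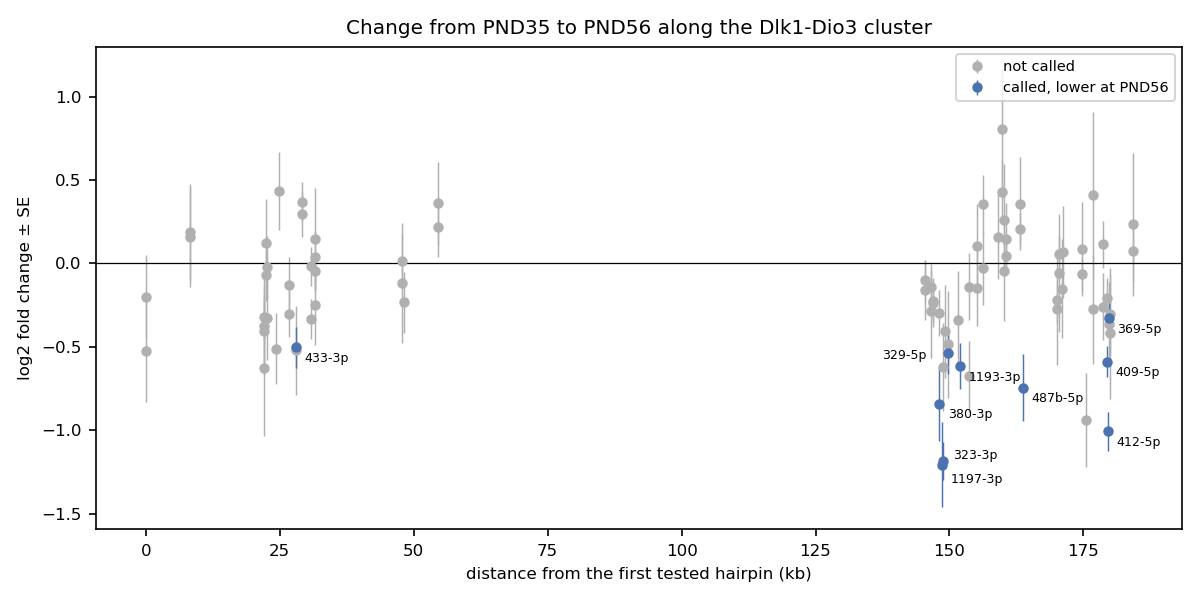
Log2 fold change ± SE from PND35 to PND56 of the 85 placed members of the Dlk1-Dio3 region (vertical axis) against the distance of their hairpin from the first tested one in kb (horizontal axis), with the 10 placed calls in blue. The call before the empty stretch is miR-433-3p, and the 9 after it include miR-380-3p, miR-1197-3p and miR-323-3p side by side and miR-409-5p, miR-412-5p and miR-369-5p side by side.

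miR-449a-5p, known from multiciliated cells such as the ependyma and the choroid plexus, had the largest fall of the called miRNAs above 1 CPM. It stood at 81.3, 88.0, 123, 113 and 113 CPM in the PND35 libraries and 25.6, 45.0, 32.7, 29.0 and 33.6 CPM in the PND56 libraries, with no overlap, a fall of 1.67 ± 0.27 (adjusted p = 0.00249) that was called in every leave-one-out fit. Its hairpin (chromosome 13, 113037534 to 113037624) lies in an intron of Cdc20b, a gene of ciliated cells. From the same intron cluster, miR-449c-5p was at 1.83 ± 0.371 and 1.01 ± 0.393 CPM, a difference of −0.86 ± 0.30 (adjusted p = 0.146). The related miR-34b-5p and miR-34c-5p, which are also known from ciliated cells, were at 0.25 ± 0.23 (adjusted p = 0.615) and 0.05 ± 0.17 (adjusted p = 0.905). Of the 9 tested markers of choroid plexus and cilia 1 fell and 0 rose, where 2.7% of all tested fell and 1.7% rose. miR-204-5p, the choroid plexus miRNA with the highest level on the list after miR-34c-5p, was at 1529.5 ± 324 and 1668 ± 233 CPM (0.14 ± 0.12, adjusted p = 0.574). The list's fold changes had a median of 0.19, and its summed level was 3509 to 4166 CPM at PND35 and 3321 to 4769 CPM at PND56. The part of ciliated or choroid cells in the fall of miR-449a-5p was not tested. miR-34a-5p, a target of p53 outside ciliated cells, was at 886 ± 84.7 and 1106 ± 109 CPM (0.32 ± 0.14, adjusted p = 0.247).

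The miR-30 family, broadly expressed miRNAs known to act on differentiation and metabolism, gave 4 of the 12 increases, from 12 tested members (33.3%, against 1.7% of all tested). miR-30a-5p stood at 3155, 3178, 3245, 3548 and 2433 CPM in the PND35 libraries and 3693, 4458, 5827, 8176 and 6719 CPM in the PND56 libraries. All PND56 libraries were above all PND35 libraries, though PND56 replicate 1 lay close to them, and the rise was 0.88 ± 0.18 (adjusted p = 0.0143). miR-30e-5p was at 3357, 3587, 3359.9, 3838 and 2975 CPM and 3928, 4702, 6754, 8843 and 7406 CPM, a rise of 0.87 ± 0.19 (adjusted p = 0.0200). miR-30d-5p was at 5528, 4940.1, 5431, 5884 and 4153 CPM and 6260.2, 7131, 8198, 11024 and 8967 CPM, a rise of 0.67 ± 0.14 (adjusted p = 0.0143). In each of the 3, PND56 replicates 4 and 5 held the highest values and the ages did not overlap. The passenger arm miR-30c-1-3p rose by 0.59 ± 0.15 (adjusted p = 0.0425), from 16.9 ± 0.969 to 25.5 ± 4.20 CPM. Of the other 8 tested members, miR-30c-5p was at 0.33 ± 0.19 (adjusted p = 0.418) and miR-30b-5p at 0.40 ± 0.27 (adjusted p = 0.486). The family's 12 members had a median of 0.32, with 11 above 0 (10 with total-count scaling), and a summed level of 13327 to 17288 CPM at PND35 and 17472 to 32959 CPM at PND56. miR-30a (chromosome 1, 23272269 to 23272339) lies between genes, while miR-30e (chromosome 4, 120772606 to 120772697) and miR-30c-1 (120769534 to 120769622) lie in the same transcript's intron, that of Nfyc, a subunit of the transcription factor NF-Y. Since miR-30a-5p and miR-30e-5p differ by 1 base, the counting could have divided reads between them, and their separate values are uncertain.

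The calls of the miR-30 family rested on particular libraries. The change of miR-30a-5p was 0.49 in replicates 1 to 3 against 1.30 in replicates 4 and 5, and the test of that difference had an unadjusted p of 0.0104 and an adjusted p of 0.359 (edgeR, interaction term). For miR-30e-5p the values were 0.52 and 1.24, and for miR-30d-5p 0.38 and 0.98, both with an adjusted p of 0.399 for the difference. The call of miR-30a-5p ended without PND35 replicate 5 (adjusted p = 0.0628) or PND56 replicate 3 (0.0537), and that of miR-30e-5p without PND35 replicate 5 (adjusted p = 0.0681) or PND56 replicate 3 (0.0650). For miR-30d-5p it ended without PND35 replicate 2 (adjusted p = 0.0568), PND35 replicate 5 (0.0640), PND56 replicate 3 (0.0650) or PND56 replicate 4 (0.0501). miR-30c-1-3p was called only without PND56 replicate 1 or 4, and had an adjusted p of up to 0.170. The family's count of 4 was 2 without PND35 replicate 2 and with total-count scaling, 0 without PND35 replicate 5 or PND56 replicate 3, and 0 in replicates 1 to 3 alone. The other arms of the same hairpins stayed under the threshold, with miR-30a-3p at 0.27 ± 0.14 (adjusted p = 0.374), miR-30e-3p at 0.31 ± 0.12 (adjusted p = 0.213) and miR-30d-3p at −0.05 ± 0.13 (adjusted p = 0.892).

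The miR-29 family, whose members repress collagens and other matrix genes and are known to accumulate as the brain matures, had 7 tested members, of which 2 rose (28.6%, against 1.7% of all tested) and 0 fell. miR-29a-3p was at 25748, 25193, 23844, 15356 and 15488 CPM in the PND35 libraries and 36196, 41219.7, 39955, 30391 and 27138 CPM in the PND56 libraries. The libraries of the later age were all higher, and replicates 4 and 5 were the lowest at both ages (rise of 0.74 ± 0.17, adjusted p = 0.0246). miR-29c-3p was at 13925, 15196, 13570.5, 8103 and 8242 CPM and 17299, 23213, 20636, 11751 and 11958 CPM, where the ages overlap over all 10 libraries but not within either name series (rise of 0.53 ± 0.12, adjusted p = 0.0312). miR-29b-3p, with replicates 4 and 5 the highest, was at 17204, 20164, 15457, 30431 and 29008 CPM and 18504, 32606, 31882, 41092 and 41229 CPM, a difference of 0.58 ± 0.17 (adjusted p = 0.0788). The 3p arms thus shifted between name series in opposite directions, and those of miR-29a and miR-29c differ by 1 base, so their separate values are uncertain. Summed over the 3 mature RNAs with the seed AGCACCA, the level rose by 0.64 ± 0.13 (adjusted p = 0.00969 over 474 seed groups). This sum was called in 9 of the 10 fits that each left out 1 library (edgeR, adjusted p up to 0.0777). All 7 members lay above 0 (6 with total-count scaling), with a median of 0.41, and the family's sum was 53027 to 60914 CPM at PND35 and 72324 to 97409 CPM at PND56. Over the same fits, the separate calls of miR-29a-3p and miR-29c-3p were kept only without PND56 replicate 1 or 5. Both also ended without the name series term and in replicates 1 to 3 alone, and without PND35 replicate 5 the adjusted p was 0.134 for miR-29a-3p and 0.151 for miR-29c-3p. miR-29a (chromosome 6, 31062660 to 31062747) lies between genes and miR-29c (chromosome 1, 195037547 to 195037634) in an exon of the noncoding transcript A330023F24Rik.

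The remaining called miRNAs belonged to none of these groups. miR-1983, a little studied miRNA whose hairpin (chromosome 13, 21896918 to 21897049) lies between genes, was at 380.1, 407, 378, 392 and 371 CPM in the PND35 libraries and 133, 233, 225, 185 and 149.7 CPM in the PND56 libraries. The PND35 libraries lay close together and well above all PND56 libraries (fall of 1.07 ± 0.18, adjusted p = 0.00368). For this and the other hairpins, "between genes" leaves small RNA genes and pseudogenes out of account. Whether the counts of miR-1983 come from another small RNA gene at this place was not tested. miR-6944-3p, from an intron of Dbn1, the gene of the dendritic spine protein drebrin, was at 33.4, 33.8, 35.7, 19.6 and 27.0 CPM and 16.1, 21.1, 19.8, 11.7 and 7.22 CPM and fell by 1.01 ± 0.18 (adjusted p = 0.00374), with overlap between the lowest PND35 and the highest PND56 libraries. Both were called in every leave-one-out fit. miR-6958-3p, from an exon of Dennd6b, fell from 24.7 ± 2.98 to 14.4 ± 5.21 CPM (by 0.80 ± 0.21, adjusted p = 0.0425), and was kept only without PND56 replicate 2 or 3. miR-3078-5p fell from 11.3 ± 3.05 to 5.83 ± 1.76 CPM (by 0.92 ± 0.23, adjusted p = 0.0349), and its call ended without PND35 replicate 2 (adjusted p = 0.0631), PND35 replicate 4 (0.0913), PND35 replicate 5 (0.0628), PND56 replicate 3 (0.0650) or PND56 replicate 5 (0.0550). On chromosome 2, miR-129b-3p and miR-670-3p lie within the same locus, that of the noncoding gene Mir670hg, but on opposite strands. The hairpin of miR-670 lies on the strand of Mir670hg and that of miR-129b opposite it. The counts of these miRNAs moved apart. miR-129b-3p was at 159.9, 139, 154, 108 and 115 CPM and 265, 275, 268, 151 and 201 CPM, a rise of 0.77 ± 0.14 (adjusted p = 0.00638), and its call ended without PND35 replicate 2 (adjusted p = 0.0555) or PND35 replicate 5 (0.0578). Its hairpin (94241378 to 94241442) lies opposite that of miR-129-2, a neuronal miRNA gene, so without strand its reads cannot be told apart from those of that gene. In another pair of hairpins on opposite strands, miR-219a-5p and miR-219b-3p had nearly equal levels (112.3 and 112.4 CPM at PND35). Whether the rise belongs to miR-129b-3p or to the opposite hairpin was not tested. miR-129-5p was at 0.42 ± 0.15 (adjusted p = 0.153) and miR-129-2-3p at 0.21 ± 0.26 (adjusted p = 0.736). miR-670-3p (94261300 to 94261399) was at 42.9, 49.3, 34.8, 48.3 and 55.1 CPM and 20.2, 12.8, 24.9, 29.9 and 26.3 CPM, a fall of 1.02 ± 0.28 (adjusted p = 0.0496) that was kept only without PND35 replicate 3 or PND56 replicate 4. Its other arm, miR-670-5p, was at 11.4, 12.5, 12.3, 13.7 and 13.4 CPM and 5.05, 6.98, 7.84, 9.32 and 6.73 CPM, without overlap and not called (−0.82 ± 0.26, adjusted p = 0.116).

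The remaining increases were of single miRNAs from separate loci. miR-490-3p, from an intron of the muscarinic receptor gene Chrm2, was at 24.2, 22.9, 26.7, 17.4 and 8.88 CPM in the PND35 libraries and 34.6, 35.7, 41.4, 24.6 and 20.8 CPM in the PND56 libraries, a rise of 0.68 ± 0.17 (adjusted p = 0.0408) kept only without PND35 replicate 4 or PND56 replicate 1. miR-140-3p, from the Wwp2 gene and known from cartilage, rose by 0.50 ± 0.14 (adjusted p = 0.0498), from 93.6 ± 5.37 to 132 ± 21.9 CPM, and its 5 PND56 libraries were all above those of PND35. miR-582-3p, from an intron of the phosphodiesterase gene Pde4d, rose by 0.59 ± 0.16 (adjusted p = 0.0448), from 15.9 ± 3.22 to 23.6 ± 2.13 CPM, likewise without overlap. The call of miR-140-3p was kept only without PND56 replicate 1 and, of 12 other settings, in 2 (DESeq2 and the stricter filter), and that of miR-582-3p only without PND56 replicate 1 or 2. miR-1b-5p, of a muscle miRNA family, rose by 0.61 ± 0.17 (adjusted p = 0.0496, kept only without PND56 replicate 1), from 118 ± 30.6 to 186 ± 72.9 CPM, while miR-1a-3p was at 0.32 ± 0.13 (adjusted p = 0.216). Whether the counts of these 2 miRNAs come from separate reads was not tested. Of the 7 tested muscle markers 1 rose (14.3%). The summed level of all 15 listed muscle markers, tested or not, ran from 651 to 916 CPM at PND35 and from 662 to 1424 CPM at PND56. The part of muscle in these values was not tested. miR-195b, of the miR-15/16 family, rose by 1.13 ± 0.28 (adjusted p = 0.0350) at 1.48 ± 0.411 and 3.28 ± 0.824 CPM, and was kept only without PND35 replicate 1 or PND56 replicate 1 or 5. miR-203b-3p had 1 to 10 counts per library and was called lower (adjusted p = 0.0425), but its mean of 0.221 CPM at PND56 lay under the 0.258 to 0.431 CPM that 3 counts make in these libraries, so no fold is given. Its hairpin lies opposite that of miR-203, and the call was kept only without PND56 replicate 4. miR-487b-5p, also on few counts, was kept only without PND56 replicate 1, and the call of miR-1193-3p ended without PND35 replicate 2 (adjusted p = 0.0568), PND35 replicate 4 (0.0590) or PND35 replicate 5 (0.0640).

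Without PND56 replicate 1 there were 39 calls, 15 higher and 24 lower, of which 26 were among the 31. The 5 that ended without it were miR-380-3p (adjusted p = 0.0720), miR-670-3p (0.0751), miR-6958-3p (0.0609), miR-369-5p (0.0552) and miR-203b-3p (0.0625). With any other library left out the count fell, to 22 without PND56 replicate 2, 20 without replicate 5, 19 without replicate 4 and 11 without replicate 3 of PND56, and to 16 without PND35 replicate 1 or 3, 13 without replicate 4, 9 without replicate 2 and 7 without replicate 5 of PND35. The 7 miRNAs called in all 10 of these fits were all falls: miR-1983, miR-449a-5p, miR-6944-3p, and from the imprinted region miR-323-3p, miR-409-5p, miR-412-5p and miR-1197-3p. In those fits 19 of the 31 were called in 5 or fewer. Without the name series term 8 were called: miR-323-3p, miR-409-5p, miR-412-5p, miR-449a-5p, miR-1983, miR-30a-5p, miR-30d-5p and miR-30e-5p. Of the 12 other settings, miR-490-3p and miR-1b-5p were called in 5 and miR-582-3p, miR-30c-1-3p and miR-369-5p in 6, and of the 11 that tested them miR-203b-3p was called in 4 and miR-487b-5p in 6. Each of the 31 kept its sign in every fit made, the 2 name series alone included. Replicates 1 to 3 alone gave 7 calls, 1 higher (miR-129b-3p) and 6 lower, and replicates 4 and 5 alone gave 119, 64 higher and 55 lower. The change itself differed between the name series in 0 of 704 miRNAs (edgeR interaction, 0%), with 88 at an unadjusted p below 0.05.

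**Figure D4:**
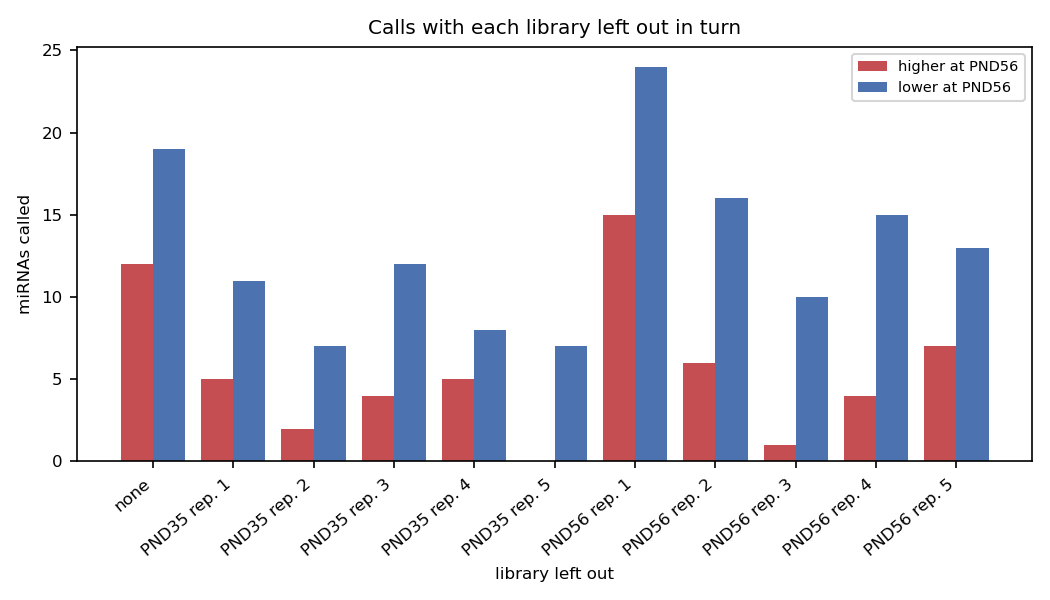
Number of miRNAs called higher (red) and lower (blue) at PND56 with no library left out and with each of the 10 libraries left out in turn. The counts are highest without PND56 replicate 1 (15 and 24), and no miRNA is called higher without PND35 replicate 5.

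Of the 22 lists of families, clusters and cell type markers, 15 held no call. In those lists DESeq2 called miR-488-3p and miR-92a-3p and limma-voom called 0. Of 24 tested miRNAs linked to GnRH neurons or puberty, 0 rose and 0 fell in edgeR's test and 1 had an unadjusted p below 0.05 (median 0.08, and −0.08 with total-count scaling). They include miR-200 family members and miR-155, known to act on repressors of GnRH in neurons, and miR-7, miR-9, miR-132 and miR-30b. The called miR-30a-5p, miR-30d-5p and miR-30e-5p are not on this list. miR-9-5p, a miRNA of the neural lineage, was at 101472 ± 4179 CPM at PND35 and 102422 ± 8942 CPM at PND56 (0.01 ± 0.08, adjusted p = 0.951). miR-7b-5p was at 0.17 ± 0.18 (adjusted p = 0.673), and the smallest p of that list belonged to miR-7a-2-3p (0.33 ± 0.13, adjusted p = 0.207). Of the 30 tested neuronal markers 0 were called, 6 had an unadjusted p below 0.05, and miR-488-3p came nearest, at 257, 292, 254, 427 and 491 CPM in the PND35 libraries and 218, 135, 138, 333 and 407 CPM in the PND56 libraries (−0.54 ± 0.16, adjusted p = 0.0842). The summed neuronal level was 126966 to 147524 CPM at PND35 and 134404 to 157109 CPM at PND56.

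The let-7 family, known as regulators of developmental timing through Lin28, had all 22 tested members above 0, 20 of them with counts of their own. None was called and 4 had an unadjusted p below 0.05, with fold changes from 0.02 to 0.48 and a median of 0.22. With total-count scaling 15 were above and 7 below 0. let-7f-5p, which had the smallest p, was at 26797, 25334, 25474, 41842 and 41248 CPM in the PND35 libraries and 31945, 42558, 31238, 47112 and 53244 CPM in the PND56 libraries (0.38 ± 0.13, adjusted p = 0.153). Its replicates 4 and 5 stood above replicates 1 to 3 at both ages. Oligodendrocyte markers, of myelin-forming cells, had 0 of 10 called, 4 at an unadjusted p below 0.05 and a median of 0.30, with 7 above 0 under total-count scaling. miR-338-3p was at 4368 ± 691 and 5963 ± 881 CPM (0.45 ± 0.17, adjusted p = 0.205), and miR-219a-5p, whose counts nearly equal those of miR-219b-3p and are uncertain as separate values, at 112 ± 50.4 and 177 ± 30.8 CPM (0.74 ± 0.29, adjusted p = 0.207). The list's summed level was 6781 to 8712 CPM at PND35 and 7826 to 10484 CPM at PND56. miR-219a-5p and miR-219b-3p each count in the numbers and sums of this list. The same holds in the vessel list for miR-126a-5p and miR-126b-3p, nearly equal at 2610 and 2611 CPM at PND35.

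No member was called, and at most 2 of a list had an unadjusted p below 0.05, among the 10 vessel markers (median 0.13, and −0.04 with total-count scaling; miR-126a-3p at 0.09 ± 0.13), the 10 of microglia and leukocytes (−0.02; miR-142a-3p at −0.25 ± 0.13), the 4 of pituitary and sensory cells (0.11, and −0.05 with total-count scaling; miR-375-3p at −0.28 ± 0.24) or the 7 of erythroid cells. All erythroid markers, 5 of them with counts of their own, lay below 0 with a median of −0.30. The summed level of all 8 listed erythroid markers, tested or not, was 636 to 881 CPM at PND35 and 487 to 744 CPM at PND56 and overlapped between the ages. The part of these cells in the called changes was not tested. Among families and clusters, the same held in the miR-17-92 cluster with its paralogs, which promotes proliferation (20 tested, median −0.16; miR-92a-3p at −0.76 ± 0.25), the miR-130 family with miR-301 (7, −0.21; miR-130a-3p at −0.31 ± 0.18), the miR-181 family (10, −0.08; miR-181d-5p at −0.39 ± 0.31), the miR-200 family (5, −0.09; miR-200c-3p at −0.19 ± 0.18), the miR-26 family (5, 0.23; miR-26a-5p at 0.21 ± 0.09) or the group of miR-99, miR-100 and miR-125 (12, 0.03, and −0.12 with total-count scaling; miR-125b-5p at 0.25 ± 0.11). The Sfmbt2 cluster, a large rodent repeat cluster whose members often share counts (30 of 44 with counts of their own), likewise had none (−0.02; miR-669a-5p, equal in its counts to miR-669p-5p, at −0.50 ± 0.20). The miR-15/16 family had 1 of 14 called, miR-195b, and a median of 0.04 (−0.11 with total-count scaling), with miR-16-5p at 0.17 ± 0.11.

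**Figure D5:**
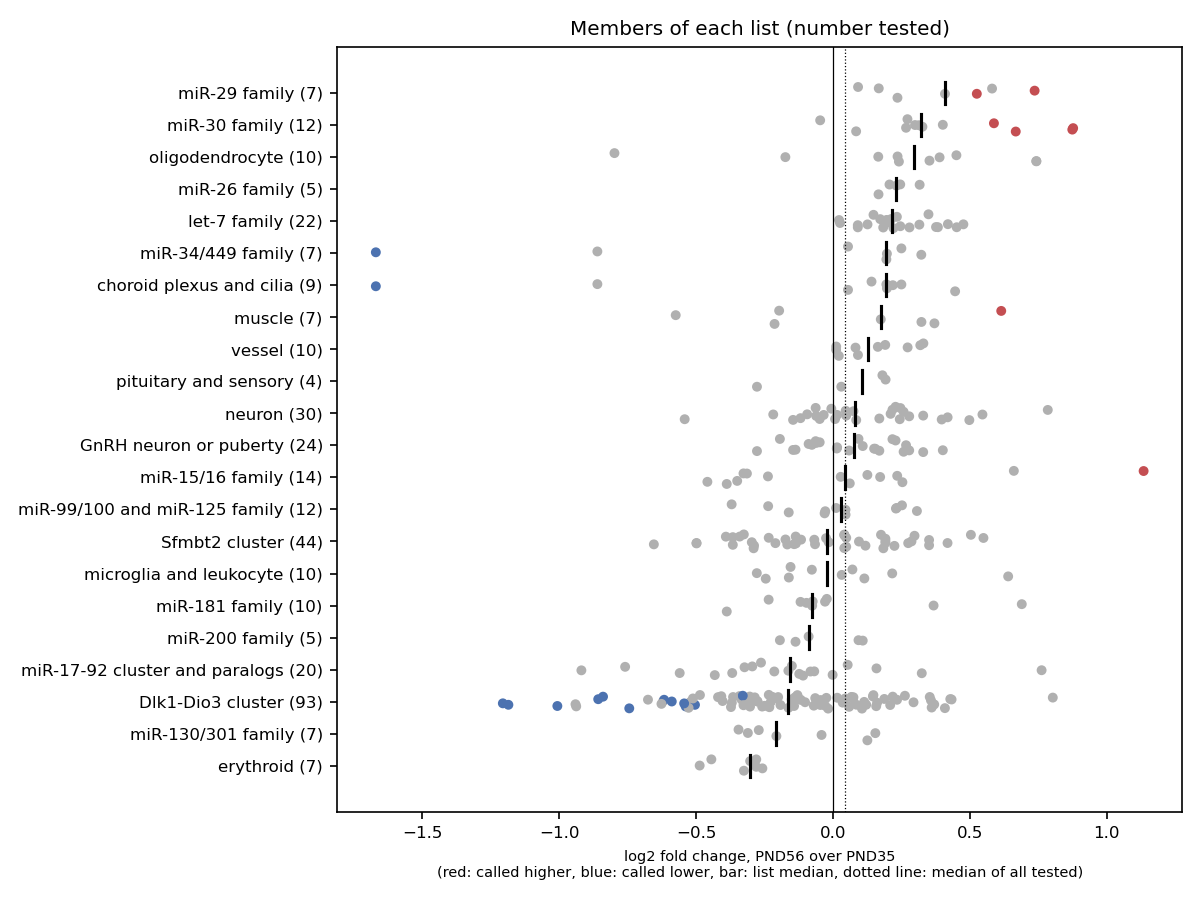
Log2 fold change from PND35 to PND56 of each tested member of the 22 lists (points; red called higher, blue called lower), with the list's median as a bar and the median of all 704 miRNAs as a dotted line. The 12 called members of the Dlk1-Dio3 region are all at negative values, the 4 of the miR-30 family and 2 of the miR-29 family are at positive values, and the 22 let-7 members lie to the right of 0 with none called.

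Summing miRNAs that share a seed asked whether the level of a seed changed over the miRNAs with a RefSeq sequence. Of 474 seed groups 12 were called (2.53%), 4 higher (0.844%) and 8 lower (1.69%), and 10 of them held a single miRNA. The other 2 were AGCACCA, given with the miR-29 family, and GUAAACA, the seed of miR-30a-5p, miR-30c-5p, miR-30e-5p and miR-384-5p, which rose by 0.59 ± 0.15 (adjusted p = 0.0380). miR-30b-5p and miR-30d-5p are not part of that sum, having no match in the RefSeq table. Its call was kept in 2 of the 10 leave-one-out fits. Whether the 2 arms of a hairpin changed unequally was tested with limma for 225 hairpins, and 0 were called (0%), with 21 at an unadjusted p below 0.05 and 1 called without PND56 replicate 2. The hairpin of miR-30d, with a shift of 0.71 ± 0.19 toward its 5p arm, had an adjusted p of 0.180.

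The level at PND14 is set beside these changes for the miRNAs the results turn on. The interval from PND14 to PND35 uses the same PND35 libraries, so the pair of changes is not independent. miR-323-3p stood at 4537 ± 584 CPM at PND14, and its log2 fold change from PND14 to PND35 was −2.02 ± 0.12, against −1.19 ± 0.11 from PND35 to PND56. For miR-449a-5p the PND14 level was 466 ± 215 CPM and the changes were −2.06 ± 0.28 and −1.67 ± 0.27, and for miR-1983 they were 971 ± 318 CPM, −1.28 ± 0.19 and −1.07 ± 0.18. miR-409-5p stood at 1016 ± 93.3 CPM at PND14, near its PND35 level, and changed by −0.07 ± 0.09 (adjusted p = 0.632) before PND35. miR-129b-3p was likewise at 159.8 ± 11.6 CPM, with −0.26 ± 0.14 (adjusted p = 0.183) in the earlier interval, and miR-329-5p at 517 ± 25.4 CPM, with 0.22 ± 0.12 (adjusted p = 0.202). miR-29a-3p stood at 7975 ± 1434 CPM at PND14 and its changes were 1.36 ± 0.17 and 0.74 ± 0.17, while miR-30a-5p stood at 1991 ± 219 CPM with 0.64 ± 0.18 and 0.88 ± 0.18.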

How the data were processed

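Total RNA was extracted with the mirVana kit and sequenced from QIAseq miRNA libraries, per the labels' protocols. The authors deposited raw counts per mature miRNA, and the submitters' processing notes name Trim Galore, Bowtie, DESeq2 and mm10. Not given in the sources used here were the counting program, the miRNA annotation release and any use of molecular identifiers. Without identifiers, reads of 1 molecule are not independent.

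Of 1842 miRNAs 704 passed edgeR's expression filter (minimum count 10, total 15), and the other 1138 held 0.0121 to 0.0194% of the counts. All 15 libraries were fitted with edgeR's quasi-likelihood F test (edgeR 4.0.16, R 4.3.3) with TMM scaling and terms for age and name series (11 residual degrees of freedom). P-values were adjusted by Benjamini-Hochberg over the 704, and calls have an adjusted p below 0.05. A standard error is the fold change divided by the root of its F value. Levels are TMM-scaled CPM, and the summed level of a list takes all its miRNAs in the count table, tested or not. In these libraries 3 counts make 0.258 to 0.431 CPM, for counting error only. Seed groups are summed counts of miRNAs with equal bases 2 to 8, and arm ratios used limma 3.58.1. Libraries of an age were checked for duplicates (smallest chi-square per degree of freedom 20.0).

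Members and lists were chosen with earlier results of these data known. The miRNAs named were, among calls reaching 10 CPM at 1 age or the other with a like sign in each name series, the 10 that rose most, the 10 that fell most and the 5 with the smallest p. To these came the 5 calls with the largest rise and the 5 with the largest fall in CPM, the 10 most abundant miRNAs at PND56, and from each of 22 lists up to 4 with the smallest p and the most abundant. Other arms, neighbouring hairpins and the remaining calls were added after their values were seen. Alternatives were other scalings (RLE, total counts), filters, tools (DESeq2 1.42.0, limma-voom), the 10 libraries alone, no name series term, a replicate block, each name series alone and each library left out.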

Additional observations from a re-analysis of the deposited data

Results flagged for a closer look

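In 238 groups of 5 libraries, 1 per named miRNA and age, Dixon's test marked 13 groups in which 1 library lay far from the other 4. Chance marks about 1 in 20 groups if the groups are independent. These are not, since they share libraries and some miRNAs have nearly equal counts. That rate therefore does not tell whether the 13 arose by chance.

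PND56 replicate 4 stood high for epithelial and sensory miRNAs. It had 103 CPM of miR-200b-3p (the others 33.1 to 41.9), 31.8 of miR-200c-3p (18.7 to 22.3), 84.3 of miR-182-5p (38.0 to 49.5), 72.2 of miR-183-5p (16.8 to 22.4) and 63.6 of miR-96-5p (18.8 to 28.0). PND56 replicate 3 stood high for the oligodendrocyte markers miR-219a-5p and miR-219b-3p, at 230.3 and 230.4 CPM, where the others had 157 to 173. PND56 replicate 2 had 6.78 CPM of miR-669k-5p (4.04 to 4.83) and a low 210.03 CPM of miR-20a-5p (257 to 272).

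At PND35, replicate 4 had 13.4 CPM of miR-181b-1-3p (4.47 to 6.50) and 16.6 CPM of miR-3078-5p (9.17 to 10.8), a miRNA that fell. Replicate 3 had 1.18 CPM of miR-203b-3p (0.499 to 0.653), and replicate 2 had 907 CPM of miR-30b-5p (658 to 708).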

How the results depend on the processing

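The 31 calls (12 higher, 19 lower) became 8 (3 and 5) without the name series term, 11 (4 and 7) with a replicate block, 7 (1 and 6) in replicates 1 to 3 alone and 119 (64 and 55) in replicates 4 and 5 alone. The block left 4 of the 12 calls in the Dlk1-Dio3 region and 0 of the 2 in the miR-29 family. Replicate numbers were not taken to pair the libraries, since no label says that they pair animals. The correlation of same-numbered deviations from the age means ran from −0.117 to 0.534, and from −0.196 to 0.175 once name series was also removed. With the first measure, 3 of 5 PND56 libraries correlated best with their own number. These correlations do not settle whether the numbers pair animals. Total-count scaling gave 6 higher and 38 lower. RLE scaling, a stricter or no filter, DESeq2, limma-voom, the 10 libraries alone and a robust fit, the last chosen after seeing the data, gave 27 to 41 calls. Leaving out 1 library gave 7 to 39 calls, 0 to 15 higher, 7 to 24 lower, 6 to 17 seed groups, 0 to 1 arm ratios and 0 to 8 interactions. The 12 seed groups became 23 with no filter and 39 with total-count scaling. Of the values of named miRNAs, 1 reversed: miR-181a-5p was at −0.02 ± 0.35 and at 0.64 in replicates 4 and 5 alone (adjusted p = 0.0479). Among the others, 258 values under an alternative lost a call and 30 gained one, while 3530 stayed on the same side. The cause was not tested. With no filter, 36 were called: 19 of the 31, 15 others of the 704 and 2 of those the filter removed.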

Other observations

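Some abundant miRNAs varied more within PND56 than between the ages, in a selection made after the values were seen. miR-181a-5p stood at 6390.1, 1751, 2052, 7919 and 13554 CPM in the PND56 libraries and 4826, 5680.4, 3467, 7048 and 6405 CPM in the PND35 libraries. miR-132-3p, induced by neuronal activity, stood at 5638, 1469, 2245, 6314 and 8121 CPM and 4493, 4257, 2995, 5909.8 and 6904 CPM. In both, PND56 replicates 2 and 3 were the lowest of their age, as they were for miR-410-3p (57.7, 26.1, 38.0, 104 and 172 CPM) and miR-129-1-3p (76.7, 36.2, 60.3, 88.8 and 135 CPM).

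Of the 32 miRNAs (4.55% of the 704 tested) whose 5 PND56 libraries did not overlap the 5 PND35 libraries, 12 were not called. Among them miR-496a-3p, from the far end of the Dlk1-Dio3 region, was at 63.0, 77.1, 71.1, 94.3 and 87.6 CPM at PND35 and 23.5, 39.4, 43.3, 47.0 and 51.5 CPM at PND56 (−0.94 ± 0.28, adjusted p = 0.0792). miR-542-3p, an X-linked neighbour of miR-503 and miR-322, was at 44.0, 36.6, 37.5, 60.7 and 54.1 CPM and 33.9, 35.6, 24.4, 32.2 and 28.7 CPM (−0.56 ± 0.16, adjusted p = 0.0519). miR-20a-5p, of the miR-17-92 cluster, was at 321, 407, 368, 316 and 278 CPM and 257, 210.0, 267, 267 and 272 CPM (−0.37 ± 0.25, adjusted p = 0.486).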
